A study of Mus musculus with 4 samples.

Results

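The genes described here are the matrix metalloproteinases (MMPs), the ADAMTS proteases with their protease-free ADAMTS-like relatives, and the tissue inhibitors of metalloproteinases (TIMPs), in infarcted mouse hearts with and without a reprogramming transgene. They were chosen by symbol, as every Mmp, Adamts, Adamtsl and Timp gene with a named probe, and the rule used no measured value. It found 48 genes among 19505 named ones, each read by 1 probe: 21 MMPs, 18 ADAMTS proteases, 5 ADAMTS-like genes and 4 TIMPs. Mmp15, Mmp27 and Adamts2 were not analysed here.

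The 4 samples are whole hearts of male mice whose left coronary artery was ligated at 8 weeks of age, and which were collected 3 months later. Animals with an ejection fraction above 45% at 2 days after ligation had been removed from the study. The 2 Ctrl-MI hearts had the genotype Tcf21iCre/Tomato, and the 2 TTg-MI hearts had the genotype Tcf21iCre/Tomato/MGTH2A. Both groups carried the infarct, the Tomato reporter and the Cre recombinase named for Tcf21 (which encodes a transcription factor that marks heart fibroblasts), and the MGTH2A transgene was what differed between them. MGTH2A is known in the field as 1 construct holding the cardiac factors Mef2c, Gata4, Tbx5 and Hand2. The hearts are called Ctrl-MI 1, Ctrl-MI 2, TTg-MI 1 and TTg-MI 2 below. The labels name no agent or dose that switches the Cre on. The RNA came from the whole organ, in which fibroblasts are 1 cell type among many, so that fewer cells of a type and less RNA per cell cannot be told apart. There is no heart without an infarct.

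MMPs are zinc-dependent enzymes that cut collagens, elastin, fibronectin and proteoglycan cores, and most are made as inactive precursors that another protease must cut. ADAMTS proteases share the metalloprotease fold but bind matrix through thrombospondin repeats, and several cut versican and aggrecan or trim procollagens. TIMPs bind the active site of these enzymes and block it. In the infarcted heart this system clears dead tissue early and remodels the scar later, with fibroblasts and macrophages as main sources.

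Values are deposited expression values per probe, taken as log2, so that a difference of -1 means a 2-fold lower level. Differences are given as TTg-MI minus Ctrl-MI, with the standard error (SE) from limma, a linear model that shares variance across probes. Values of different probes are not comparable as levels. Each array's lower quartile, between 5.41 and 5.48, served as a mark for dim probes, below which a gene was not shown to be above background. Of the 48 genes, 39 lay above it on every array and 5 (Mmp1a, Mmp1b, Mmp7, Mmp10 and Adamts13) below it on every array, as did 19.8% of all probes. Adamts8 and Adamts18 lay below it on 2 arrays, and Adamts17 and Mmp8 on 3.

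The heart identity of the samples was plain from the arrays, as all 12 measured cardiomyocyte markers lay above the lower quartile everywhere. Some atrial muscle markers set Ctrl-MI 2 apart. The atrial myosin light chain gene Myl7 read 10.44 in Ctrl-MI 1 and 5.61 in Ctrl-MI 2, and 12.45 and 11.47 in TTg-MI. Myl4, another atrial light chain gene, read 7.70 in Ctrl-MI 2 and at least 14.61 in the other hearts. Not all of the 10 listed atrial markers did so: Stard10 read 8.76 and 8.81 in Ctrl-MI, and Gja5 read 7.71 and 7.73. Across the 48 genes Pearson's r was 0.975 between Ctrl-MI 2 and TTg-MI 1 and 0.912 between the Ctrl-MI arrays; this r is across genes, which are not independent replicates. Array medians lay between 6.55 and 6.62.

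A run of 9 MMP genes lies together on mouse chromosome 9, and nearly all of their promoters hold a letter pattern found in no other member promoter searched. RefSeq promoters of build GRCm38.p6, from 250 bases before to 50 bases after each annotated start, matched 33 of the 48 genes. The AP-1 pattern TGANTCA, which reads the same on both strands and which Fos and Jun proteins are known to bind, was found in 8 of these 33 genes, all of them among the 9 of the cluster (Mmp13, Mmp12, Mmp1b, Mmp3, Mmp1a, Mmp10, Mmp20 and Mmp7, but not Mmp8). Of all 32851 promoter windows of the table, 7.81% held it. The patterns TATAAA and AGGAAG were also searched. They were found in 12 and 15 of the 33 genes, and in 13.6% and 35.4% of all windows. The 100 bases before the start are shown for Mmp3, the member with the smallest p, for Mmp12, the member that differed most within groups, and for Mmp13 and Mmp8, collagenases with and without the match. They are written 5′ to 3′ on the plus strand, at chr9:7445722-7445821, chr9:7347274-7347373, chr9:7272414-7272513 and chr9:7558329-7558428, with the AP-1 letters in capitals.
Mmp3: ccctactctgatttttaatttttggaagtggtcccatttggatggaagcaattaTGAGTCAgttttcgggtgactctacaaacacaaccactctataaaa
Mmp12: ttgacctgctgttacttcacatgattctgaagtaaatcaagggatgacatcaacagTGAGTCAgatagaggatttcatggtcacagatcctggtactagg
Mmp13: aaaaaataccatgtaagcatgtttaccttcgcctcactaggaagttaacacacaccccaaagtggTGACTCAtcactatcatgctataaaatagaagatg
Mmp8: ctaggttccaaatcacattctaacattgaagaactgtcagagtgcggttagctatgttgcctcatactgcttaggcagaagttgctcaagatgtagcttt
The match begins 46 bases before the start in Mmp3, 44 in Mmp12 and 35 in Mmp13. Mmp12 has a second annotated start whose window holds no match. A match describes these letters and is not a measured binding site.

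Matrix protease and inhibitor genes were more often lower than higher in TTg-MI hearts. The stromelysin Mmp3, the inhibitors Timp1 and Timp2, the gelatinase Mmp2 and the ADAMTS-like gene Adamtsl2 were at least 2-fold lower without group overlap. The TTg-MI mean was lower for 35 of 48 genes (72.9%), against 47.7% of all probes. The median log2 difference was -0.16 over the 48 genes and 0.01 over all probes. At least 2-fold lower were 7 genes (14.6%, against 1.41% of all probes): Mmp3, Timp1, Adamtsl2, Adamts1, Timp3, Mmp2 and Timp2. Without Ctrl-MI 1, 3 of the 48 genes were at least 2-fold lower: Mmp3, Timp1 and Mmp12, the last of which is not among those 7. Without Ctrl-MI 2, 38 of 48 genes were lower and 9 at least 2-fold lower, with a median of -0.20. The counts with an array left out are given without the share of all probes in the same fits. They are therefore not read as particular to these genes. Adamts7 alone was at least 2-fold higher (2.08%, against 0.666%).

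No member passed limma with Benjamini-Hochberg adjustment over all 22206 probes, of which 1 (0.00450%) passed, and 0 passed in a linear model without moderation. The smallest adjusted p among the members was 0.530, for Mmp3. At an unadjusted limma p under 0.05 there were 9 lower genes (18.8%, against 5.07% of all probes) and 1 higher (2.08%, against 3.18%). The lower ones were Mmp3, Adamts10, Adamts9, Mmp14, Adamtsl2, Timp2, Timp1, Mmp2 and Mmp23, and the higher one was Adamts7. The groups did not overlap, with TTg-MI lower, for 19 genes (39.6%, against 18.7% of all probes) and with TTg-MI higher for 4 (8.33%, against 19.4%). The 48 genes share the same 4 hearts and are not independent of each other.

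**Figure D1:**
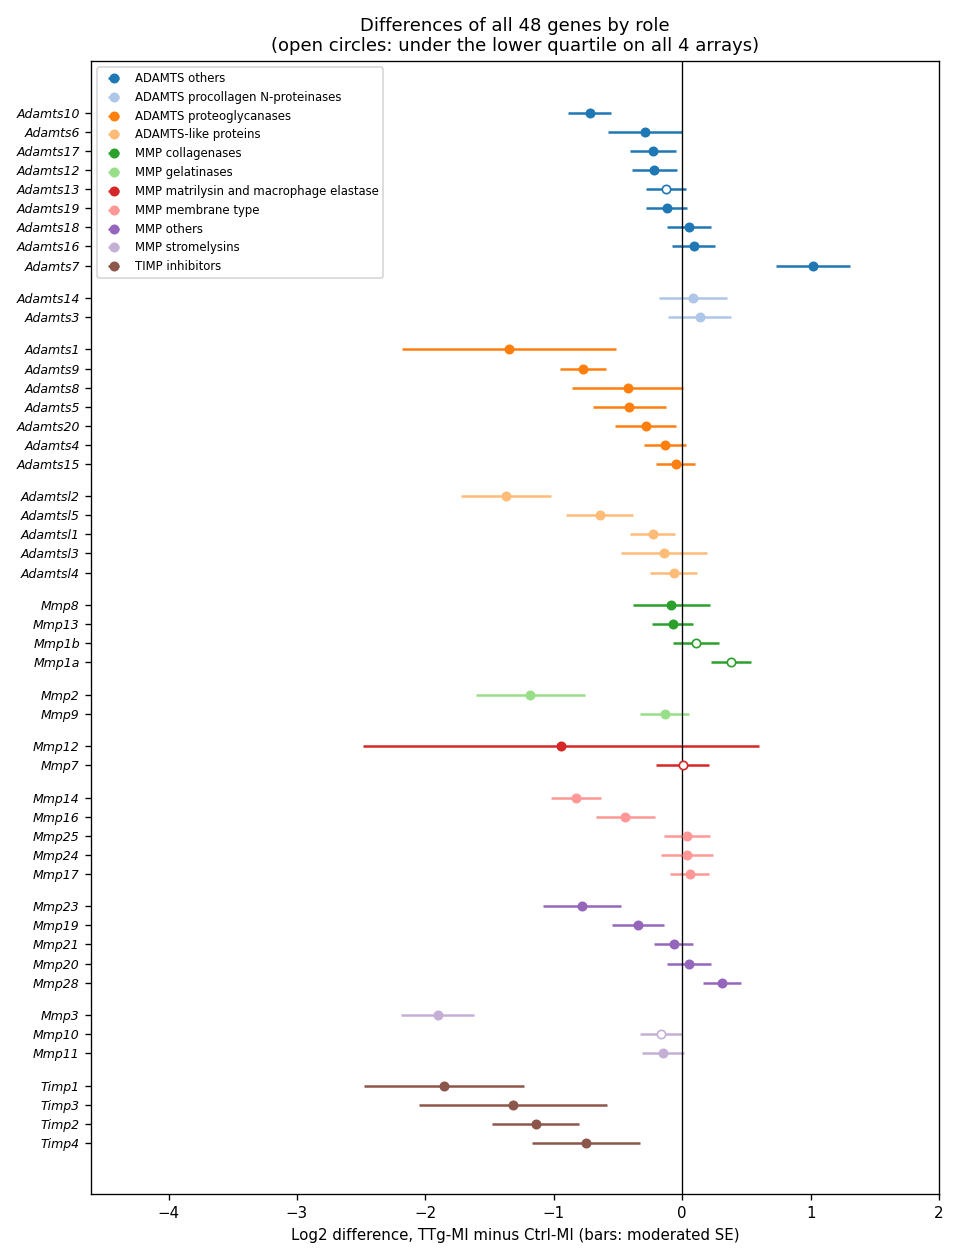
Log2 difference, TTg-MI minus Ctrl-MI, of each of the 48 genes (circles) with the moderated standard error (bars), grouped and coloured by role; open circles mark genes under the lower quartile on all 4 arrays. The TIMPs and ADAMTS proteoglycanases lie on the lower side throughout, and Adamts7 at 1.02 is the only gene at least 2-fold higher.

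The gelatinases and their activator come first. Mmp2, or gelatinase A, an enzyme of fibroblasts that cuts denatured collagen and basement membrane, read 11.60 and 10.54 in Ctrl-MI and 10.29 and 9.49 in TTg-MI. Ctrl-MI 1 was the highest and TTg-MI 2 the lowest, and the groups did not overlap, though the gap between the nearest arrays was 0.25. The means were 11.07 ± 0.75 and 9.89 ± 0.56 (SD, n = 2 each), and they differed by -1.18 (SE 0.43; limma, adjusted p = 0.588). The difference was -0.65 without Ctrl-MI 1 and -0.78 without TTg-MI 2.

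Mmp14 encodes the membrane-bound MT1-MMP, which activates the Mmp2 precursor on the cell surface with Timp2 as the adaptor between them. It read 6.86 and 6.85 in Ctrl-MI against 6.24 and 5.82 in TTg-MI. The Ctrl-MI arrays were nearly alike and the TTg-MI arrays both lower. The difference was -0.83 (SE 0.19; limma, adjusted p = 0.546) and kept between -1.04 and -0.62 as single arrays were left out. All 3 genes of this activation complex had lower TTg-MI means without overlap of the groups, and none of the 3 passed the adjustment. Lower values without overlap were also found for 18.7% of all probes and 39.6% of the 48 genes. The 3 genes were read in the same hearts and are not independent of each other. Without Ctrl-MI 1 the difference shrank to -0.65 for Mmp2 and -0.64 for Timp2, and was -0.82 for Mmp14.

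Mmp9, or gelatinase B, which neutrophils and macrophages release early after infarction, read 5.82 and 6.24 in Ctrl-MI and 5.87 and 5.91 in TTg-MI. These values overlapped and stood little above the dim mark. Its difference was -0.14 (SE 0.19), with a 95% interval of -0.62 to 0.34, which does not reach a 2-fold difference either way. Of the 9 measured neutrophil markers, 0 had an unadjusted limma p under 0.05. Only 5 of these 9 lay above the dim mark on every array, and 2 lay below it on every array, which limits what they can show.

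Mmp3, or stromelysin 1, cuts proteoglycans and fibronectin and activates other MMP precursors. It read 8.05 and 7.33 in Ctrl-MI and 5.96 and 5.60 in TTg-MI, where it came close to the dim mark of about 5.47. Each TTg-MI array was lower than each Ctrl-MI array by at least 1.36. The means of 7.69 ± 0.51 and 5.78 ± 0.25 (SD, n = 2 each) differed by -1.90 (SE 0.28; 3.74-fold lower; limma, adjusted p = 0.530), the 25th smallest p of all probes. With single arrays left out the difference ran from -2.27 to -1.54.

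The other stromelysins showed no such gap. Mmp11, or stromelysin 3, lay between 6.28 and 6.56 on all arrays, and Mmp10, or stromelysin 2, was dim throughout.

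The collagenases, which make the first cut in intact fibrillar collagen, stood at or near the dim mark. Mmp13, or collagenase 3, read 5.64 and 5.68 in Ctrl-MI and 5.70 and 5.48 in TTg-MI, a difference of -0.07 (SE 0.16). Mmp8, the collagenase of neutrophils, read 5.45 and 4.95 against 4.75 and 5.47, under the mark on 3 arrays, and is given no direction. Mmp1a and Mmp1b, the rodent relatives of the human interstitial collagenase, were dim on every array. The 95% interval for Mmp13, which stayed above the mark on all 4 arrays, was -0.48 to 0.33.

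Mmp12, or macrophage elastase, separated the hearts more than the groups. It read 7.16 in Ctrl-MI 1 and 11.42 in Ctrl-MI 2, then 9.77 in TTg-MI 1 and 6.93 in TTg-MI 2. One heart of each group was high and the other low. Its SD within groups, 2.56, was the 4th highest of all 22206 probes. The group difference of -0.94 (SE 1.54) has a 95% interval of -4.79 to 2.91, and it became 1.19 without Ctrl-MI 2 and 0.48 without TTg-MI 2. Its arrays did not follow the macrophage markers, whose mean was 9.42 and 8.35 in Ctrl-MI and 8.00 and 7.66 in TTg-MI. Mmp7, or matrilysin, was dim throughout.

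**Figure D2:**
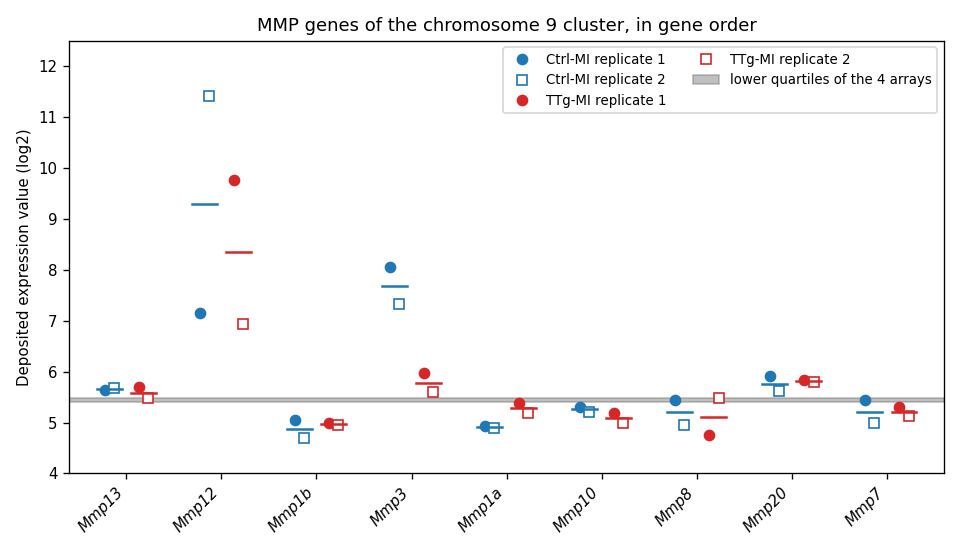
Deposited log2 values of the 9 MMP genes that lie together on chromosome 9, in gene order, for each array (blue Ctrl-MI, red TTg-MI; filled circles replicate 1, open squares replicate 2; short lines group means), with the grey band marking the arrays' lower quartiles. Mmp3 separates the groups, Mmp12 spreads from 6.93 to 11.42 across hearts, and the other 7 lie near or under the band.

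The genes of the chromosome 9 cluster had unlike values, and 8 of the 9 hold the AP-1 letters printed above. In gene order they are Mmp13, Mmp12, Mmp1b, Mmp3, Mmp1a, Mmp10, Mmp8, Mmp20 and Mmp7, and 4 of the 9 were dim on every array. Mmp20, an enzyme of tooth enamel, lay between 5.61 and 5.91.

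Among the remaining membrane-type MMPs, Mmp16 had lower TTg-MI arrays without overlap (-0.44, SE 0.23; -0.26 without Ctrl-MI 1 and -0.22 without TTg-MI 1). Mmp17, Mmp24 and Mmp25 differed by 0.04 to 0.06. Mmp23, a small membrane-anchored member, read 8.81 and 7.93 in Ctrl-MI and 7.67 and 7.52 in TTg-MI. Its Ctrl-MI 1 stood well above the other arrays, and the difference of -0.78 (SE 0.30; limma, adjusted p = 0.600) was -0.34 without it and -1.22 without Ctrl-MI 2. Mmp28, or epilysin, had higher TTg-MI arrays without overlap, with 6.89 and 6.96 against 7.25 and 7.22 (0.31, SE 0.15). Mmp19 lay lower (-0.34, SE 0.20; -0.12 without TTg-MI 1) and Mmp21 differed by -0.07.

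**Figure D3:**
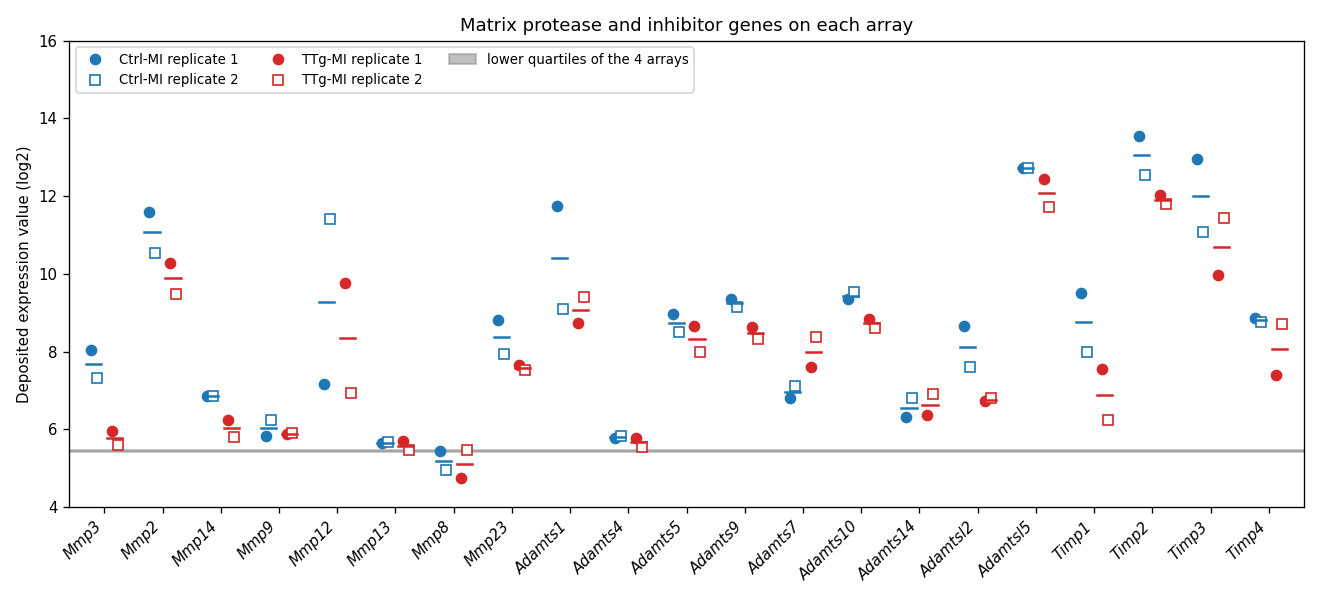
Deposited log2 values of 21 genes on each array (blue Ctrl-MI, red TTg-MI; filled circles replicate 1, open squares replicate 2; short lines group means), with the grey band marking the arrays' lower quartiles; values of different genes are not comparable as levels. Timp1, Timp2, Mmp2, Mmp3 and Adamtsl2 lie lower in TTg-MI without overlap, while Timp3, Adamts1 and Mmp12 overlap.

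All 7 ADAMTS proteoglycanases, which cut versican and aggrecan, were lower on average in TTg-MI (47.7% of all probes), with a median of -0.41. Only Adamts9 was lower without overlap of the groups, as were 18.7% of all probes. Without Ctrl-MI 1 the median was -0.02, with 4 of 7 lower. Adamts9 read 9.35 and 9.15 in Ctrl-MI and 8.62 and 8.33 in TTg-MI, a difference of -0.77 (SE 0.18; limma, adjusted p = 0.546) that held between -0.92 and -0.63 as single arrays were left out. It is a versican-cutting enzyme of the developing heart and vessels.

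Adamts1, a versican-cutting enzyme induced by injury, read 11.75 in Ctrl-MI 1, 9.09 in Ctrl-MI 2, 8.73 in TTg-MI 1 and 9.41 in TTg-MI 2. Ctrl-MI 1 stood alone, and the other arrays lay between 8.73 and 9.41. The difference of -1.35 (SE 0.83) was therefore -0.02 without Ctrl-MI 1 and -2.67 without Ctrl-MI 2.

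Adamts5, the main aggrecanase of mouse cartilage, read 8.97 and 8.52 against 8.67 and 7.99 and overlapped (-0.41, SE 0.29; -0.19 without Ctrl-MI 1, -0.64 without Ctrl-MI 2, -0.75 without TTg-MI 1 and -0.07 without TTg-MI 2). Adamts4, the other classic aggrecanase, lay between 5.55 and 5.82 on all arrays. Its difference of -0.13 (SE 0.16) has a 95% interval of -0.54 to 0.27. Adamts8, Adamts15 and Adamts20 differed by -0.42, -0.05 and -0.28, with overlap. Without Ctrl-MI 1 the differences were 0.25, 0.0016 and 0.0030.

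The procollagen N-proteinases, which trim the amino ends of fibrillar procollagens, were not lower on average. Adamts14 read 6.31 and 6.80 in Ctrl-MI and 6.36 and 6.91 in TTg-MI, and Adamts3 read 5.83 and 6.46 against 6.37 and 6.20. Both overlapped, with differences of 0.08 (SE 0.26) and 0.14 (SE 0.25). The sign for Adamts14 turned to -0.16 without Ctrl-MI 1 and to -0.19 without TTg-MI 2, and that for Adamts3 to -0.18 without Ctrl-MI 1.

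Adamts7 had the largest difference on the higher side among the 48 genes. This enzyme of vascular smooth muscle, known to cut COMP, read 6.81 and 7.13 in Ctrl-MI and 7.61 and 8.37 in TTg-MI. Both TTg-MI arrays were above both Ctrl-MI arrays, TTg-MI 2 by the most. The means of 6.97 ± 0.23 and 7.99 ± 0.54 (SD, n = 2 each) differed by 1.02 (SE 0.29; 2.03-fold higher; limma, adjusted p = 0.546). Without TTg-MI 2 the difference was 0.64, and without TTg-MI 1 it was 1.399. Comp itself differed by -3.48 (SE 0.95) with no overlap, and by -2.08 without Ctrl-MI 1.

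Adamts10, which binds fibrillin and takes part in microfibril assembly, read 9.36 and 9.52 in Ctrl-MI and 8.83 and 8.62 in TTg-MI. The difference of -0.72 (SE 0.17; limma, adjusted p = 0.546) ranged from -0.83 to -0.61 as single arrays were left out. Adamts12, the closest relative of Adamts7, was lower without overlap by a gap of 0.014 (-0.22, SE 0.17; -0.07 without TTg-MI 2). Adamts6, Adamts16, Adamts17, Adamts18 and Adamts19 differed by -0.29 to 0.09.

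The ADAMTS-like proteins have no protease domain and sit on fibrillin microfibrils. All 5 were lower on average in TTg-MI (median -0.23; 47.7% of all probes were lower), 3 of them without overlap (18.7% of all probes). The median was -0.09 without Ctrl-MI 1 and -0.64 without Ctrl-MI 2. Adamtsl2, which binds fibrillin and the latent TGF-beta binding proteins, read 8.66 and 7.60 in Ctrl-MI and 6.72 and 6.80 in TTg-MI. The TTg-MI arrays were nearly alike and the Ctrl-MI arrays more than 1 unit apart. The difference was -1.37 (SE 0.35; 2.59-fold lower; limma, adjusted p = 0.546), with -0.84 without Ctrl-MI 1 and -1.90 without Ctrl-MI 2.

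Adamtsl5 read 12.72 on each Ctrl-MI array, 12.44 in TTg-MI 1 and 11.72 in TTg-MI 2, and the lower mean rested mostly on TTg-MI 2 (-0.64, SE 0.26; -0.28 without that array). Adamtsl1 was lower by a gap of 0.03 (-0.23, SE 0.18; -0.07 without Ctrl-MI 1). Adamtsl3 (-0.14) and Adamtsl4 (-0.07) overlapped, and the Adamtsl3 difference was 0.36 without Ctrl-MI 1.

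The 4 inhibitors had the largest median difference of any role group, -1.23, with lower TTg-MI means throughout. The median was -0.67 without Ctrl-MI 1 and -1.95 without Ctrl-MI 2, with all 4 lower in each fit. That rank was lost without Ctrl-MI 1 and without TTg-MI 1, where the pair Mmp7 and Mmp12 had a median of -1.42 and -1.22, against -0.67 and -0.91 for the TIMPs. Timp1, a soluble inhibitor that fibroblasts make on injury, read 9.51 and 7.99 in Ctrl-MI and 7.56 and 6.24 in TTg-MI. The hearts of each group lay more than 1 unit apart, and the gap between the groups was 0.44. The means of 8.75 ± 1.07 and 6.90 ± 0.93 (SD, n = 2 each) differed by -1.86 (SE 0.62; 3.62-fold lower; limma, adjusted p = 0.572). The difference was -1.10 without Ctrl-MI 1 and -1.20 without TTg-MI 2.

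Timp2, which both inhibits Mmp2 and helps to activate it, read 13.55 and 12.55 in Ctrl-MI and 12.02 and 11.80 in TTg-MI. All TTg-MI values were below all Ctrl-MI values. The difference was -1.14 (SE 0.34; 2.21-fold lower; limma, adjusted p = 0.546), and -0.64 without Ctrl-MI 1.

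Timp3, the matrix-bound inhibitor that also blocks aggrecanases, read 12.95 and 11.07 in Ctrl-MI and 9.96 and 11.44 in TTg-MI. Ctrl-MI 1 was high, TTg-MI 1 low, and the remaining pair overlapped. The difference of -1.32 (SE 0.73; limma, adjusted p = 0.711) was -0.38 without Ctrl-MI 1, -0.58 without TTg-MI 1, -2.25 without Ctrl-MI 2 and -2.05 without TTg-MI 2.

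Timp4, the inhibitor most typical of heart muscle, read 8.87 and 8.76 in Ctrl-MI, 7.41 in TTg-MI 1 and 8.72 in TTg-MI 2. TTg-MI 1 alone was low. The difference of -0.75 (SE 0.42; limma, adjusted p = 0.711) was -0.10 without that array and -1.41 without TTg-MI 2. In the RefSeq gene table Timp1, Timp3 and Timp4 each lie inside the interval of a synapsin gene (Syn1, Syn3 and Syn2), a known arrangement of this family.

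**Figure D4:**
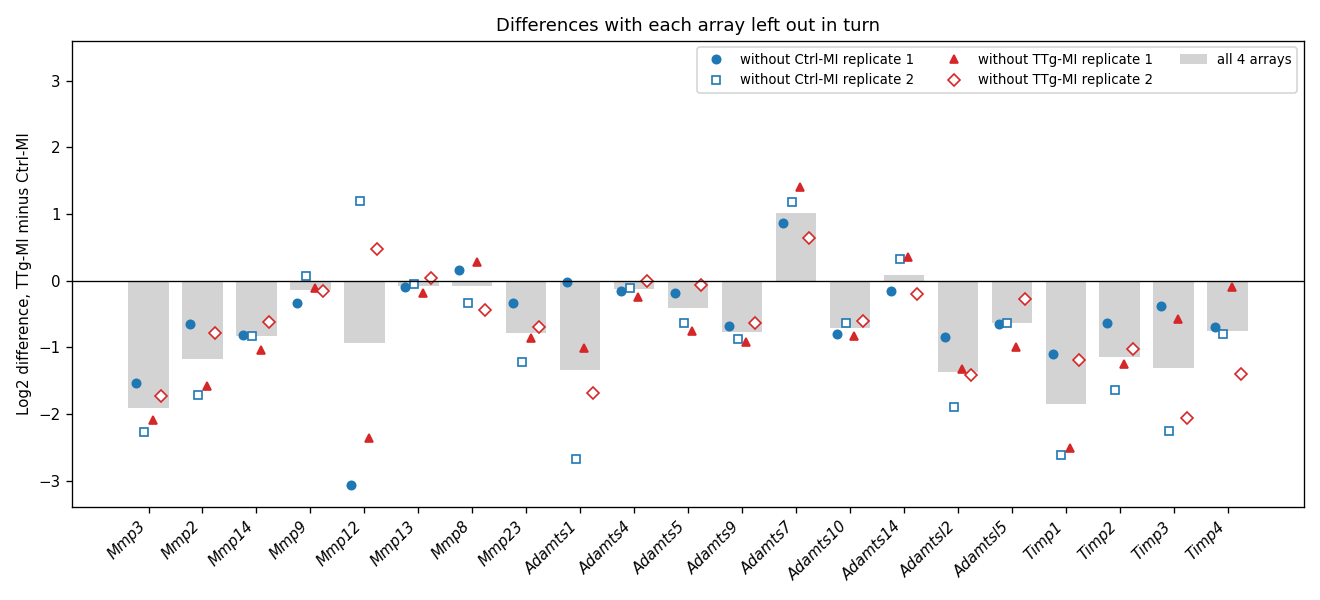
Log2 difference, TTg-MI minus Ctrl-MI, of 21 genes with all 4 arrays (grey bars, from 0) and with each array left out in turn (symbols). Mmp3, Mmp14, Adamts9 and Adamts10 stay close to their bars, whereas Adamts1 runs from -2.67 to -0.02 and Mmp12 from -3.07 to 1.19.

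The array left out mattered for most of these genes. Of the 21 genes named for their role, size or p, 17 had a difference that shifted over 1.5-fold in some fit without an array, and 5 changed sign (Mmp8, Mmp9, Mmp12, Mmp13 and Adamts14). Of all 48 genes, 42 had such a shift and 19 changed sign, the other 14 being Mmp1b, Mmp7, Mmp20, Mmp24, Mmp25, Adamts3, Adamts6, Adamts8, Adamts15, Adamts16, Adamts18, Adamts20, Adamtsl3 and Adamtsl4. Without Ctrl-MI 2, limma called 4 members, Mmp3 (adjusted p = 0.0309), Adamtsl2 (adjusted p = 0.0309), Adamts1 (adjusted p = 0.0350) and Timp2 (adjusted p = 0.0371), all lower. The same fit called 0.896% of all probes lower. It gave 15 lower members at an unadjusted p under 0.05 (7.73% of all probes). Fits without Ctrl-MI 1, TTg-MI 1 or TTg-MI 2 called 0 members, and 0.00901%, 0.00450% and 0.00450% of all probes. With all arrays the adjusted limma p of these 4 was 0.530, 0.546, 0.749 and 0.546.

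The partners of the proteases were read from lists of other genes. Of 18 measured substrates, 15 were lower on average in TTg-MI (47.7% of all probes; median -1.05), and 10 had an unadjusted limma p under 0.05, all lower (5.07% of all probes). The median was -0.59 without Ctrl-MI 1, -1.39 without Ctrl-MI 2, -1.26 without TTg-MI 1 and -0.57 without TTg-MI 2. Versican (Vcan), which Adamts1 and Adamts9 cut, differed by -1.57 (SE 0.25), elastin (Eln) by -1.37 (SE 0.20) and the basement membrane collagen Col4a1 by -0.71 (SE 0.20). Aggrecan (Acan), the cartilage target of Adamts4 and Adamts5, differed by 0.05 (SE 0.23; -0.23 without Ctrl-MI 2). With all arrays 0 of the 18 substrates passed the adjustment. The substrate list shares genes with marker lists used below, so these are not separate observations. Dcn, Lum, Col1a1, Col1a2 and Col3a1 are also fibroblast markers, and Comp, Fmod and Fn1 are also markers of activated fibroblasts and scar.

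Of 13 activators and procollagen processing genes, 12 were lower on average in TTg-MI (47.7% of all probes). After median centring 11 of 13 were lower. The median was -0.24, and -0.10 without Ctrl-MI 1. With all arrays 2 of the 13 had an unadjusted limma p under 0.05, both lower (5.07% of all probes). These were Pcolce2 (-0.86, SE 0.20) and Pcolce (-1.03, SE 0.34; -0.65 without Ctrl-MI 1), enhancers of procollagen trimming at the carboxyl end. Furin, the protease that activates Mmp14 inside the cell, differed by -0.05 (SE 0.21; 0.20 without Ctrl-MI 1). Of 7 other inhibitors and clearance receptors, 3 were lower at an unadjusted limma p under 0.05 (5.07% of all probes): Lrp1, an endocytic receptor that clears MMPs (-1.58, SE 0.35), Mrc2, a collagen uptake receptor (-1.05, SE 0.24), and Cst3, the protease inhibitor cystatin C (-0.86, SE 0.23). Reck, a membrane-anchored MMP inhibitor, differed by -0.61 (SE 0.29; -0.28 without Ctrl-MI 1 and -0.93 without Ctrl-MI 2). None of these genes passed the adjustment with all arrays.

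Of 11 measured transcription factor genes known to act on MMP promoters, 4 were lower (5.07% of all probes) and 1 higher (3.18%) at an unadjusted limma p under 0.05, and 0 passed the adjustment. The list median was -0.65, with -0.22 without Ctrl-MI 1 and -0.82 without Ctrl-MI 2. The 4 lower genes were the AP-1 members Jund (-0.79, SE 0.18), Junb (-0.65, SE 0.15) and Jun (-0.74, SE 0.18), and the runt factor Runx1 (-1.16, SE 0.40). Runx1 differed by -0.58 without Ctrl-MI 1. The Ets2 mean was higher (0.46, SE 0.18; 0.30 without TTg-MI 1). Fos differed by -0.75 (SE 0.35), by -0.22 without Ctrl-MI 1 and by -1.28 without Ctrl-MI 2. Of the other AP-1 genes listed, Fosl2 differed by -1.03 (SE 0.50), and by -0.25 without Ctrl-MI 1. Fosb (-0.11, SE 0.17) and Fosl1 (0.10, SE 0.23) overlapped between the groups. Which factors bind the promoters of the chromosome 9 genes in these hearts was not measured.

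Markers of fibroblasts and macrophages were lower in the same hearts, and several atrial muscle markers differed between them. All 12 measured fibroblast markers were lower in TTg-MI without overlap (18.7% of all probes; median -1.28, -0.78 without Ctrl-MI 1 and -0.75 without TTg-MI 2), and their mean value was 13.07 and 12.27 in Ctrl-MI and 11.77 and 11.002 in TTg-MI. All 12 macrophage markers were lower on average (47.7% of all probes), by a median of -1.002, and 10 of them without overlap (18.7% of all probes). None of the 12 fibroblast markers was under the dim mark on any array, and of the macrophage markers only Ccr2 was, on 2 arrays. The macrophage median was -0.50 without Ctrl-MI 1 and -1.61 without Ctrl-MI 2. Lower macrophage markers numbered 10 of 12 without Ctrl-MI 1 and 11 without TTg-MI 1. The part of fewer fibroblasts or macrophages in the lower protease and inhibitor values was not tested.

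The order of the arrays by the fibroblast marker mean, from Ctrl-MI 1 at the top through Ctrl-MI 2 and TTg-MI 1 to TTg-MI 2, was shared by 10 of the 48 genes (20.8%, against 6.85% of all probes). They include Mmp2, Mmp3, Mmp14, Mmp23, Adamts9, Timp1 and Timp2. Timp3, Timp4, Adamts1, Adamts7 and Adamtsl2 had other orders. This order was chosen after the values were seen. It requires lower TTg-MI values without overlap, which 39.6% of the 48 genes and 18.7% of all probes had. The count of 10 is therefore not separate from that result. Endothelial markers differed by a median of -0.03 (0.02 after quantile normalization, and -0.37 to 0.29 with single arrays left out). The median was -0.14 for smooth muscle and pericyte markers, 0.07 for cardiomyocyte markers and 0.04 for neutrophil markers. Single markers on these lists differed more, in both directions. Examples are Tie1 (0.69) and Pecam1 (-0.56) of endothelium, Acta2 (1.26) and Des (-0.52) of smooth muscle, and Ryr2 (0.89) and Myh7 (-1.46) of cardiomyocytes. Markers of activated fibroblasts and scar were lower on average for 12 of 12 (47.7% of all probes), by a median of -1.59 (-1.03 without Ctrl-MI 1). The count was 11 after quantile normalization, after median centring, without Ctrl-MI 1 and without TTg-MI 2. Of 10 atrial muscle markers, 5 were at least 2-fold higher (0.666% of all probes), with a list median of 0.82 that turned to -0.28 without Ctrl-MI 2. Bmp10, a growth factor gene of atrial muscle, is the single probe that passed the adjustment (adjusted p = 0.00489 in limma); it read 5.31 and 5.39 in Ctrl-MI, under the dim mark, and 12.38 and 11.82 in TTg-MI. The marker and partner lists were chosen with earlier results of these data known, so their counts and shares are not independent support. The part of atrial tissue in the protease values was not tested.

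**Figure D5:**
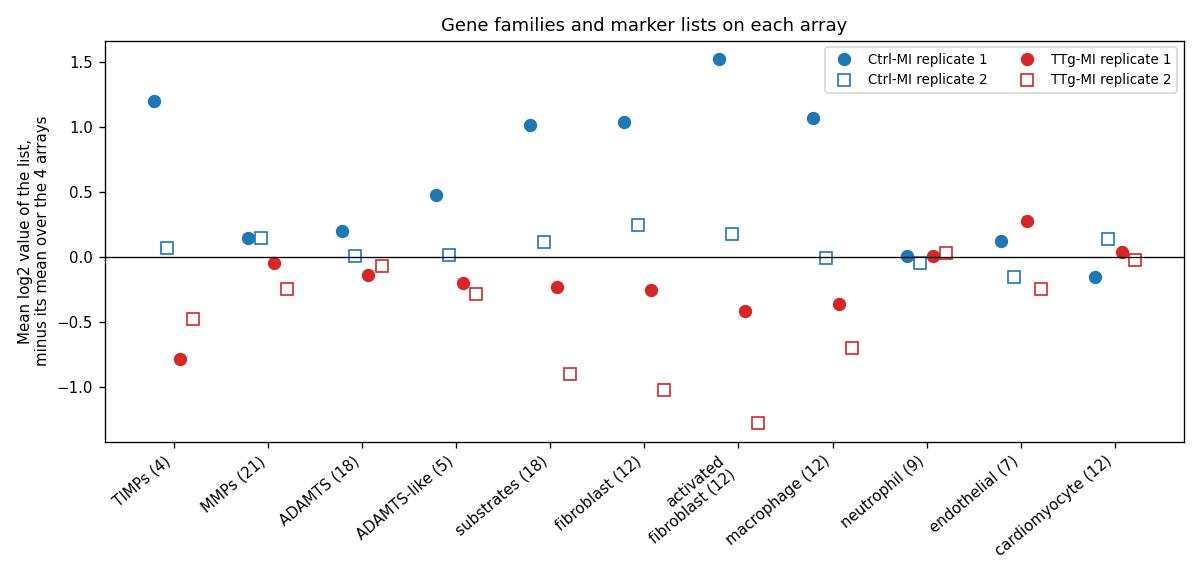
Mean log2 value of each gene family or marker list on each array, minus its mean over the 4 arrays (blue Ctrl-MI, red TTg-MI; filled circles replicate 1, open squares replicate 2; number of genes in brackets). The TIMPs are highest in Ctrl-MI 1, at 1.20, and lowest in TTg-MI 1, at -0.79; the fibroblast markers span 1.04 to -1.03, and the MMPs as a whole 0.15 to -0.25.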

How the data were processed

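Expression was measured on Clariom S Mouse arrays, 2 Ctrl-MI and 2 TTg-MI, which the series' design text calls independent biological replicates. The deposited values are log2 expression values per probe, the log base being inferred from their range. Per the submitters' processing notes, the authors used Affymetrix Expression Console 1.4; summarization, normalization and genome build are not given in the sources used here. Values were used as deposited. Of 22206 probes, 19572 had 1 gene symbol in the platform annotation and 2634 were unnamed here.

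All probes entered 1 two-sided limma fit (limma 3.58.1 under R 4.3.3, lmFit and eBayes) on 2 residual and 3.56 prior degrees of freedom. P-values were adjusted by the Benjamini-Hochberg method over the whole table, and 0.05 was the threshold. The test was checked on simulated data. An exact permutation test of 2 against 2 cannot give p below 0.333. Intervals are 95% limma intervals, unadjusted. The number of arrays limits the precision.

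The genes and lists were chosen with earlier results of these data known. Named genes are the TIMPs, Mmp2, Mmp3, Mmp8, Mmp9, Mmp12, Mmp13, Mmp14, Adamts1, Adamts4, Adamts5 and Adamtsl2, any member with an unadjusted p under 0.05 or a 2-fold difference, and the member with the highest mean of each role group. In other lists, up to 4 genes with the smallest p were named. Others given a value were chosen after it was seen. Alternatives were median centring, quantile normalization, leaving out dim probes, an intensity trend with robust prior, an unmoderated linear model, the replicate number as a block, the mean of a gene's probes and each array left out in turn.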

Additional observations from a re-analysis of the deposited data

How the results depend on the processing

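Counts over the 48 genes kept within 1.5 times of the values above under most alternatives. Genes lower at an unadjusted limma p under 0.05 numbered 9, but 3 in the linear model without moderation, and 7 to 15 in the fits without 1 array, the 15 arising without Ctrl-MI 2 (7.73% of all probes in that fit). Genes higher numbered 1, but 2 after median centring and 2 with an intensity trend and robust prior, and 0 to 1 with single arrays left out. Genes past the adjustment were 0, and 0 to 4 with single arrays left out. Genes without overlap numbered 25 to 31 below and 7 to 11 above in those fits, where a group of 1 array separates more easily by construction. No share of all probes is given for these counts, so they are not read as results about the members. The same holds for the unadjusted counts without moderation and with the replicate block. The median difference was -0.23 with dim probes left out, a set of fewer genes, and -0.20 to -0.14 with single arrays left out.

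As single arrays were left out, 5 named differences changed sign. Mmp8 ran from -0.45 to 0.28, with 0.16 without Ctrl-MI 1 and 0.28 without TTg-MI 1. Mmp9 ran from -0.34 to 0.068, the latter without Ctrl-MI 2. Mmp12 ran from -3.07 to 1.19 (without Ctrl-MI 2), with 0.48 without TTg-MI 2. Mmp13 ran from -0.18 to 0.035, the latter without TTg-MI 2. Adamts14 ran from -0.19 (without TTg-MI 2) to 0.36, with -0.16 without Ctrl-MI 1. The cause was not tested. Of the other alternatives, only median centring and quantile normalization could alter a difference, and no named gene changed sign under either. The rest change the spread or the set of probes and leave each difference as it was. No named gene passed the adjustment under any of these alternatives. Replicate numbers only name the arrays, and their deviations correlated at 0.16 between groups; with the replicate block 10 genes were lower at an unadjusted p under 0.05 and 0 passed the adjustment. Where 1 array of a group remained, its spread was taken from the other group. Mmp1a, Mmp1b, Mmp7, Mmp8 and Mmp10 lay too near background for a direction.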
